A study of Camelina sativa with 159 samples.

Results

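Among the early flowering accessions of Camelina sativa, 47 of the 94495 gene models counted in leaf RNA were either on or off, with few accessions at a level in between. They were chosen by their level alone. The counts of all libraries of an accession with at least 200000 counts were summed and divided by the accession's total to give CPM (the counts expected in a total of 1000000), and a gene model was called off under 0.7 CPM and on above 6 CPM. It was kept when at least 90% of the 44 early accessions were on or off and at least 3 of them were in each state. For comparison, 33701 gene models were on in at least 1 early accession. The states of the 47 in the early accessions are therefore what the choice rested on, and they are described below without a test.

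C. sativa is an oilseed of the Brassicaceae and an allohexaploid, so many of its genes are present as related copies on 3 subgenomes. A transcript that is present in some lines of a species and absent in others is known as expression presence/absence variation. In plants it is described both for genes that are missing or disrupted in some lines and for intact genes that are silenced, and RNA counts alone do not separate these. An accession in a genebank is a seed sample kept under a number and is not by definition a single pure line. The gene models are identified here by their position-based names (Csa, chromosome, running number, transcript), since no name, function or sequence for them was found in the sources used here.

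Total RNA was taken from leaf tissue of young greenhouse seedlings, at the stage of a fully expanded 4th leaf, and was sequenced by paired-end RNA-seq. The 4 late accessions were CN 113662, CN 113692, CN 113691 and CN 113660, with flowering times (FT) of 52, 55, 59.4 and 61.9 days in the field, and they had 11 libraries. The 44 early accessions, 8 with the prefix CAM and 36 with the prefix CN, flowered at 43 to 47.9 days and had 137 libraries. Which season or summary these days stand for is not given here. For 1 season, the study's text puts CN 113660 8 days after CN 113690, which differs from the 61.9 and 43 days used here. No treatment is named for any group. The study's methods call the libraries of an accession biological replicates, without saying whether each came from 1 plant or a pool. Accessions were the replicates in every comparison between groups.

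The libraries used held 444464 to 15246389 counts (median 4389023.5), and the sums of the early accessions held 5654762 to 30119735 counts. At the smallest sum, 3 counts correspond to 0.531 CPM, so an off call rests on few reads there, and intervals or floors given here cover counting error only. The chlorophyll a/b-binding gene model Csa06g036860.1, a marker of green leaf, was at 408 to 3912 CPM in these libraries. A further 10 libraries of 167 to 123028 counts were left out of the sums.

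The libraries of an accession did not always match each other over the 47 gene models. Of the 137 early libraries, 90 had fewer opposite states (on in one library and off in the other) against a library of their own accession than against any library of another, 19 were tied, and 28 libraries of 20 accessions were nearer to a library of another accession. Over 515 other gene models that were on in at least 3 and off in at least 3 early accessions, 16 of the 28 were again nearer to another accession, and 21 of the 137 libraries were nearer to another accession in all. The 28 libraries held 1148649 to 11856222 counts (median 4875870), and the other 109 held 444464 to 15246389 (median 4398677), so they were not the shallow ones. The number of gene models meeting the rule, the number of combinations with libraries in both states and the share of equal states within an accession are also given without them. The other counts include them.

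When the 28 libraries were removed, an alternative chosen after seeing the data, 41 accessions and 109 libraries remained and 90 gene models met the same rule, of which 44 were among the 47. The set is thus a list under 1 summing of the libraries, and its size changes with the libraries summed. Most members stayed in it and others joined.

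Most of the 47 gene models were on in most early accessions. There were 34 that were on in more accessions than they were off, and 13 that were off in more. Of all 2068 combinations of gene model and early accession, 1343 were on, 621 were off and 104 were between. In 332 of the 621 off combinations not a single read was counted, but no gene model had 0 reads in all of its off accessions. The level of the on accessions had a median of 6.65 to 166 CPM per gene model, and the reads pooled over on accessions against those pooled over off accessions gave a ratio of 24.4 to 1667 (median 237), above 100 for 37 of the 47. In the plot of states, the rows run from gene models on in nearly all accessions to gene models on in 3.

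**Figure D1:**
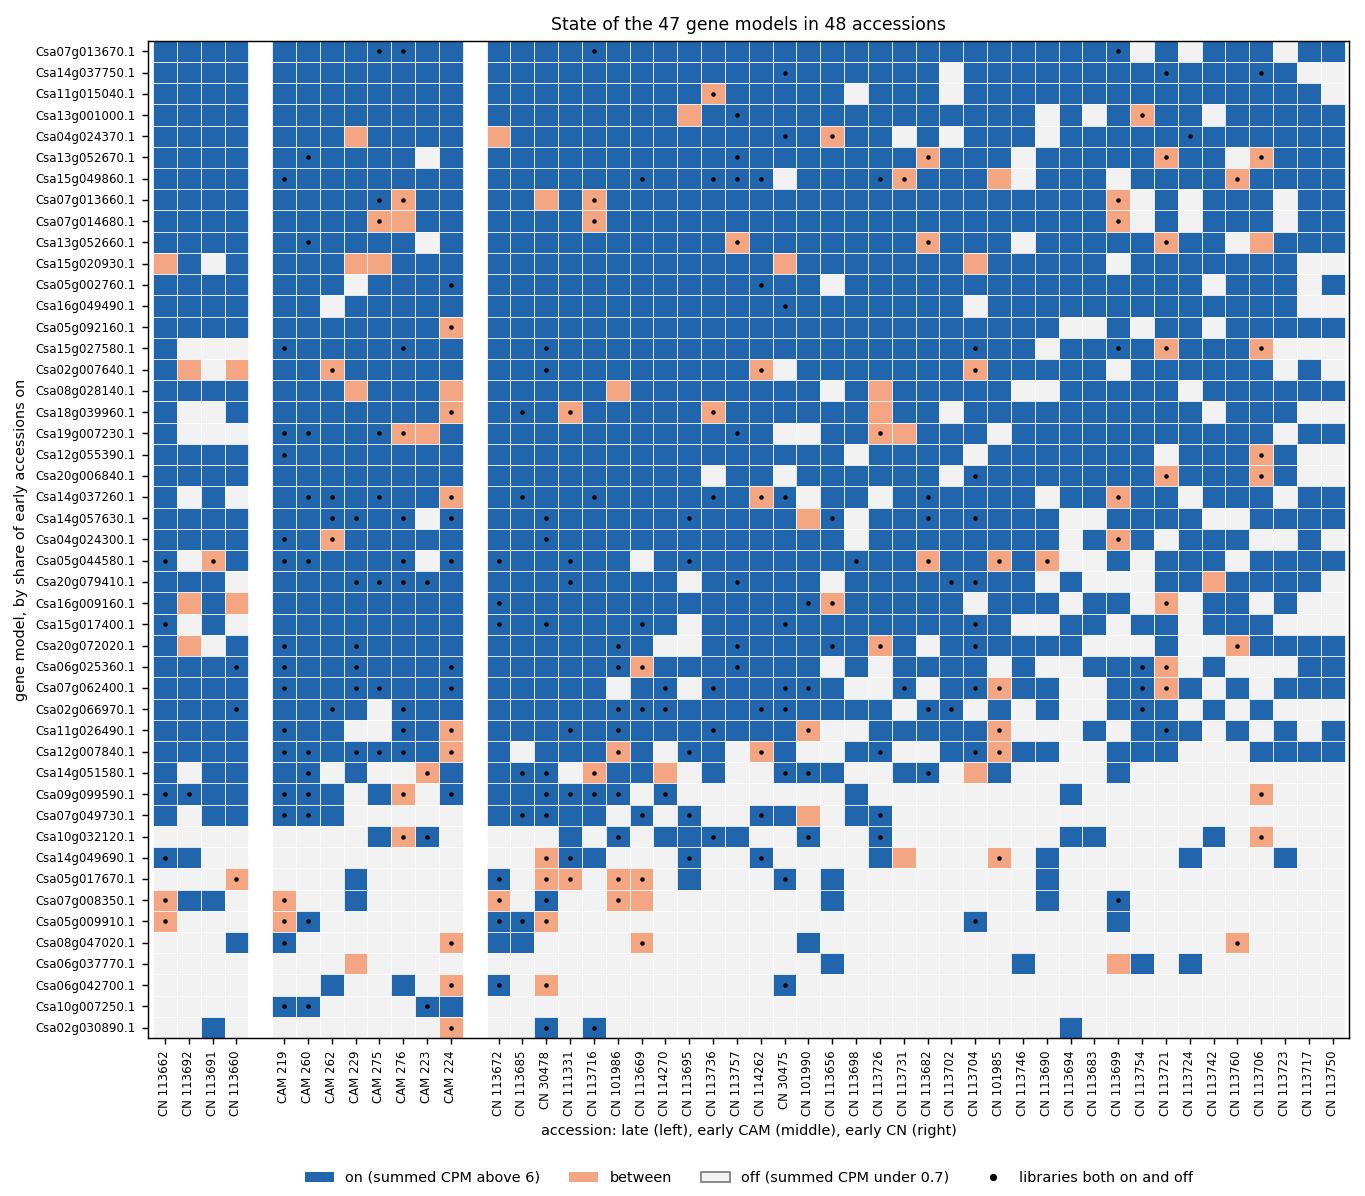
State of each of the 47 gene models (rows) in the 4 late accessions, the 8 early CAM accessions and the 36 early CN accessions (columns, each early block from most to fewest gene models on). Blue is on, orange is between, grey is off, and a black dot marks an accession whose libraries were both on and off. Off calls are spread over many accessions and rows, and dots occur in 44 of the 47 rows of early accessions.

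The smaller state was rare for most of them. In 29 gene models it was held by 3 to 5 accessions (off in 22 gene models, on in 7), in 11 by 6 to 9 accessions and in 7 by 10 or more. The most even split was that of Csa14g051580.1 on chromosome 14, which was on in 17 accessions at 7.39 to 56.6 CPM (median 11.98) and off in 23, where it had 11 reads in all. Csa07g049730.1 on chromosome 7 was on in 14 accessions at 16.1 to 426 CPM (median 44.002) and off in 29, at 0 to 0.354 CPM, with no read in 14 of them. Only 1 early accession lay between the thresholds for it.

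Csa09g099590.1 was on in 14 accessions (median 22.1 CPM) and off in 28, and Csa10g032120.1 was on in 13 (median 19.3 CPM) and off in 29. Both had reads in nearly every off accession, since only 2 of these had none for each gene model. The other gene models with an even split were mostly on. Csa12g007840.1 was on in 28 accessions (median 26.9 CPM) and off in 12, Csa02g066970.1 on in 33 (median 41.8 CPM) and off in 11, Csa11g026490.1 on in 30 (median 24.6 CPM) and off in 11, and Csa07g062400.1 on in 33 (median 43.1 CPM) and off in 9. In these 4 the highest off accession had 0.582, 0.208, 0.199 and 0.383 CPM.

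The gene model with the highest level was Csa14g037750.1 on chromosome 14, on in 41 accessions at 7.88 to 343 CPM (median 166). It was off in CN 113702, CN 113717 and CN 113750, at 0.139 to 0.565 CPM. Csa20g079410.1 (chromosome 20), on in 36 accessions, had a median of 80.3 CPM and was at most 0.364 CPM in its 7 off accessions. Csa05g002760.1 (on in 40, median 75.1 CPM, off in 4) and Csa14g057630.1 (on in 37, median 61.05 CPM, off in 6) followed. Csa06g025360.1 had the highest pooled ratio among the gene models of highest level, with 4 reads in all over 9 off accessions against a median of 36.4 CPM in 33 on accessions, a pooled ratio of 1339.

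There were 12 gene models whose smaller state was held by only 3 accessions. Beside Csa14g037750.1, those with the highest level were Csa07g013670.1 (median 33.4 CPM, off in CN 113723, CN 113724 and CN 113754) and Csa15g049860.1 (median 26.4 CPM, off in CN 113699, CN 113746 and CN 30475). Just inside the limit of 90%, Csa05g017670.1 and Csa12g007840.1 were called in 40 accessions and had values of 6.05 CPM each in the accession closest to a threshold. Just outside it, Csa15g014080.1 and Csa15g034830.1 were called in 39, with closest values of 5.998 CPM and 5.98 CPM that fell short of on. There were 11 gene models at 40 called accessions and 19 at 39.

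The 44 early accessions differed in how many of the 47 were on. CN 113672 had 40 on and CN 113750 had 20 on, with a median of 30.5. No 2 accessions had the same states over all 47. Among the 946 pairs of accessions the number of opposite states was 1 to 22, with a median of 10. CAM 219 and CAM 260 had 1 opposite and 44 equal states, and CN 113723 and CN 113742, at the other end, had 22 opposite and 24 equal. CAM 219 and CAM 224, CN 113706 and CN 113721, and CN 113716 and CN 30478 also had 1 opposite state. These are states of sums. In CAM 219 and CAM 260, 17 and 11 gene models had libraries both on and off, so their likeness is not one of single libraries.

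Within an accession, the libraries could themselves be split into on and off, which the rule, resting on sums, did not use. The libraries singly were on in 60.6%, between in 3.96% and off in 35.4% of 6439 combinations of gene model and early library, with no read in 1768 of the 2279 off combinations. In 248 of the 2068 combinations of gene model and accession (11.99%), at least 1 library was on and at least 1 was off. Over all 33701 gene models on in an early accession, the corresponding share of combinations was 0.392%. By gene model, 44 of the 47 had such an accession, against 11% of the 33701. The same libraries make up the sums that chose the 47, so these shares are set side by side as a description.

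The split was hidden by the sums. Of the 1343 on calls, 171 (12.7%) had libraries in both states, and in 65 of these a single library was on. Of the 104 combinations between the thresholds, 77 (74.0%) had libraries in both states, so most intermediate levels were averages over libraries that were on and libraries that were off. All libraries were on in 1057 of the 1343 on combinations, and all were off in 573 of the 621 off combinations. When only accessions with all libraries alike were counted, 35 of the 47 gene models still had at least 3 accessions on and at least 3 off.

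In the accession CAM 260 all split gene models were split the same way. In its library S001C51, 11 gene models were on that were off in both other libraries, Cs133 and Cs143. Csa07g049730.1 was at 53.6 CPM in S001C51 against 0 in both others, Csa09g099590.1 at 40.1 against 0 in both, and Csa14g051580.1 at 14.6 against 0 in both. Only Csa13g052670.1 had a read in the others, at 0.367 CPM in Cs133. Over the 515 other gene models, S001C51 was opposite to Cs133 in 43.97% and to Cs143 in 46.2% of those on or off in both libraries, while Cs133 and Cs143 were opposite to each other in 4.96%.

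CAM 275 showed the reverse, with 8 gene models off in library Cs131 and on in S001C50 and S001C5F. Csa20g079410.1 was at 0 CPM in Cs131 and at 72.3 and 55.1 CPM in the others, and Csa07g062400.1 was at 0.151 CPM in Cs131 and at 36.1 and 30.5 CPM. In CN 114262, 8 gene models were on in S001C48 alone, with Csa05g002760.1 at 63.4 CPM there and at 0 and 0.144 CPM in Cs130 and S001C54. In CN 113721, 8 were on in S001C37 alone, with Csa11g026490.1 at 38.96 CPM there and at 0.270 and 0.140 CPM in Cs090 and S001C41.

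The largest number of split gene models was 17, in CAM 219. Its library S001C5C was off in 9 gene models that were on in Cs082 and Cs128. Csa07g049730.1 was at 0.380 CPM in S001C5C against 236 and 68.1 CPM in Cs082 and Cs128, and Csa07g062400.1 was at 0 against 193 and 52.5 CPM. S001C5C had 13 opposite states against each library of its own accession and 0 against the libraries Cs150 and S001C20 of CN 101985. Over the 515 other gene models it was opposite to Cs082 in 47.0%, to Cs128 in 28.3%, to Cs150 in 25.98% and to S001C20 in 27.4%, and the library with the lowest share was Cs117 of CN 101986, at 5.79%. Cs082 and Cs128 did not match each other either. They had 8 opposite states between them, and as few as 4 and 3 against a library of another accession. Over the 515 they were opposite in 25.6%, and to the nearest library of another accession in 9.55% (Cs082) and 14.9% (Cs128). Without S001C5C, in an alternative chosen after seeing the data, 49 gene models met the rule, all 47 among them.

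**Figure D2:**
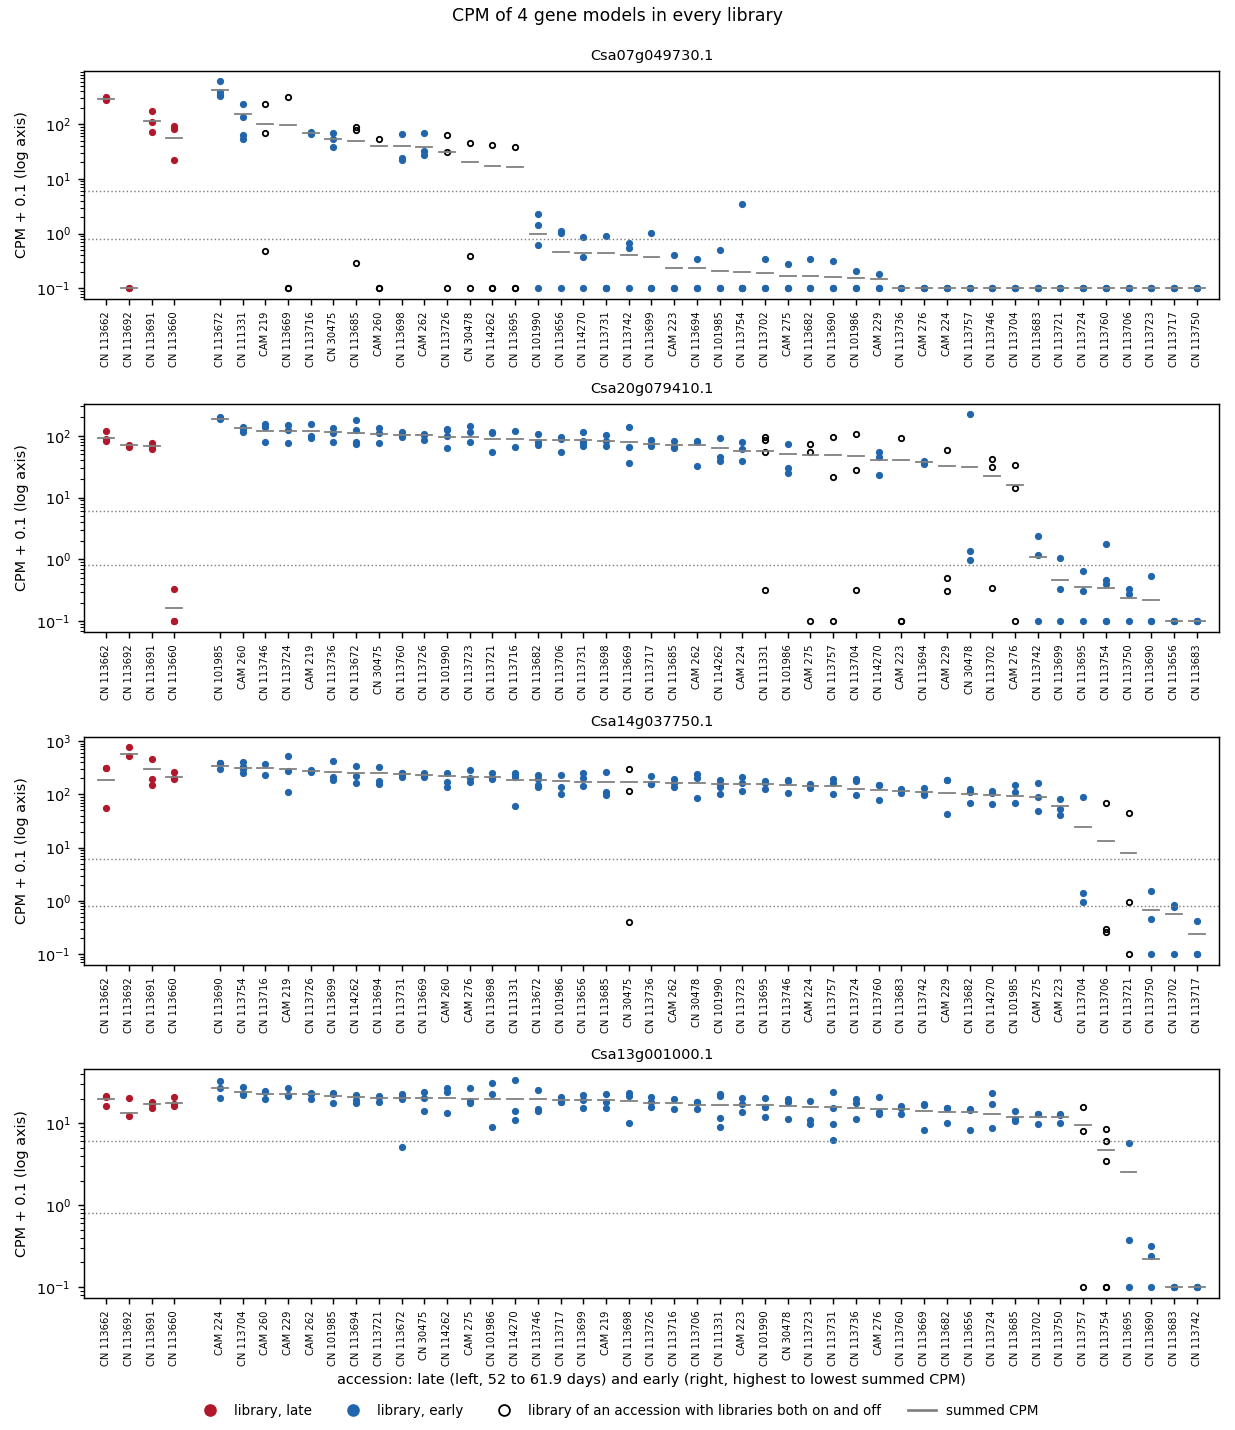
CPM + 0.1 (log axis) of 4 gene models in every library with at least 200000 counts, by accession, with the late accessions at left and the early accessions at right from highest to lowest summed CPM. Filled points are libraries, open points are libraries of accessions with libraries both on and off, bars are the summed CPM, and dotted lines mark 0.7 and 6 CPM. The open points lie at the level of other on libraries or near 0, with few between the lines.

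Libraries that were on in a split accession were somewhat below the level of accessions with all libraries on. Over 372 such libraries the level was at a median of 64.1% of the gene model's median in libraries of accessions with all libraries on (quartiles 44.5% and 94.8%). The libraries of the accessions with all libraries on had quartiles of 80.9% and 121% around that median (n = 3284). In the 43 accessions with 3 or more libraries there were 241 split combinations, and in 218 of them a single library stood against all others, alone on in 109 and alone off in 109. These came from 70 libraries, and 17 libraries that each stood alone in at least 5 gene models gave 111 of the 218.

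Among the libraries used, splits were found in 37 of the 44 early accessions and were absent from 7 (CN 113683, CN 113694, CN 113717, CN 113723, CN 113742, CN 113746 and CN 113750). Libraries left out for low counts differed from those used in CN 113723 and CN 113717. In S001C2F of CN 113723, Csa19g007230.1 was at 65.0 CPM (95% interval 28.1 to 128, 8 reads). In S001C62 of CN 113717, Csa14g037750.1 was at 153 CPM (41.7 to 392, 4 reads). Both were off in the libraries used. The 7 had 20 to 28 gene models on (median 25) and the 37 had 24 to 40 (median 32). Of the 248 split combinations, 171 were on as a sum, 77 were between and 0 were off. The difference in numbers on is thus in part fixed by the summing. Among the 47 gene models, 37 were found on in all libraries of at least 1 of the 7 and off in all libraries of at least 1 other of them. All 8 CAM accessions had splits, in 4 to 17 gene models (median 9.5), against 0 to 14 in the 36 CN accessions (median 5). By gene model, Csa07g062400.1 was split in 13 accessions and Csa12g007840.1 in 12. None was seen for Csa06g037770.1, Csa08g028140.1 and Csa15g020930.1, which are named here after their values were seen. Without the 28 libraries nearer to another accession there were 97 split combinations in 41 accessions, against 248 in 44. Those libraries were picked for opposite states over the same 47 gene models, so a lower count was fixed by their removal.

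**Figure D3:**
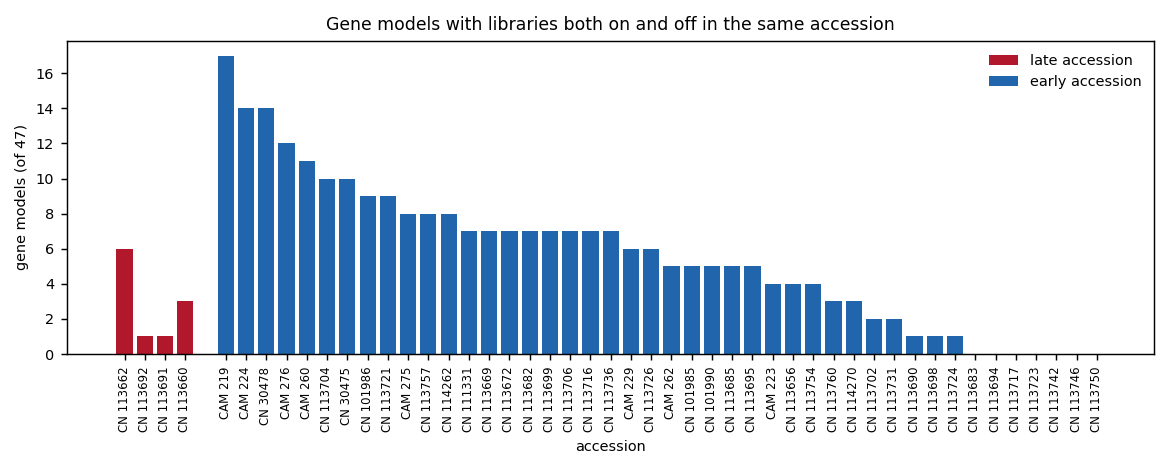
Number of the 47 gene models (bars, axis from 0) with at least 1 library on and at least 1 library off in the same accession, for the 4 late accessions at left and the 44 early accessions at right. Only libraries with at least 200000 counts are included. Counts in early accessions run from 17 in CAM 219 to 0 in 7 accessions, and those of late accessions from 6 in CN 113662 to 1 in CN 113691 and CN 113692.

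Libraries of the same accession had fewer opposite states than libraries of different accessions, a difference that the choice of the 47 on sums of these libraries in part fixes. Over 149 pairs of early libraries of the same accession, the median number of opposite states was 3 (range 0 to 13), 40 pairs had none, and 92.2% of the states called in both libraries were equal (95.9% without the 28 libraries, which were picked on these states). Over 9167 pairs of different accessions the median was 12 (range 0 to 25), 6 pairs had none, and 72.3% were equal. Pairs share libraries, so no p-value was given. Within an accession, pairs of different series of library codes had 91.9% equal states and pairs of the same series had 92.6%.

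**Figure D4:**
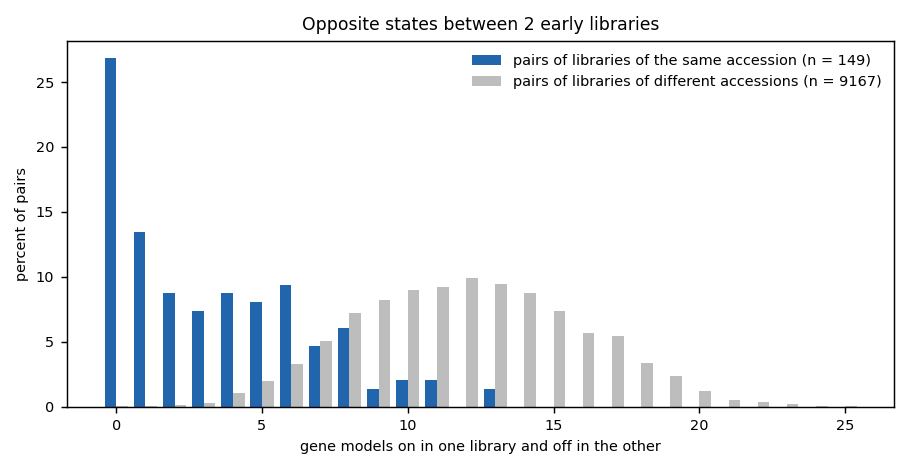
Percent of pairs of early libraries (axis from 0) by the number of gene models on in one library and off in the other, for 149 pairs of the same accession and 9167 pairs of different accessions. Same-accession pairs are highest at 0 and reach 13, and pairs of different accessions peak at 12.

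The 47 gene models were spread over 17 of the 20 chromosomes and all 3 subgenomes. Subgenomes 1, 2 and 3 held 18, 11 and 18 of them (38.3%, 23.4% and 38.3%), against 33.03%, 32.3% and 34.7% of the 33362 placed gene models on in an early accession. Each of the 47 was the only transcript counted for its locus. Positions are given by the gene model names, as chromosome and order, because no genome of this annotation was used here. Reads of near-identical copies on the other subgenomes may have been split or lost in the counting, and this was not tested.

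A few of them lay side by side and shared their states. On chromosome 7, Csa07g013660.1, Csa07g013670.1 and Csa07g014680.1, which lie within 3 gene models of each other in the table, were off in the same 3 accessions, CN 113723, CN 113724 and CN 113754. In the 11 libraries of these accessions that were used, the highest value was 0.548 CPM, and Csa07g013670.1 had 4 reads in all. No early library was on in one of them and off in another, and 16 libraries were off in each pair of them, including libraries of accessions that were on as a sum. In CAM 275, for example, all 3 were off in Cs131 (0.151, 0 and 0 CPM) and on in S001C50 (7.67, 22.998 and 6.87 CPM). Another gene model of this stretch, Csa07g014690.1, was not among the 47, since 25 accessions were between, but it was off in the same 3 accessions and in no other.

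On chromosome 13, the neighbours Csa13g052660.1 and Csa13g052670.1 were off in CAM 223, CN 113746 and CN 113760. They had 4 and 1 reads in all in these accessions, against medians of 12.5 and 13.95 CPM in their on accessions. No early library was opposite between them, 132 libraries were equal, and 18 were off in both. They moved together within split accessions too, with 16.7 and 13.4 CPM in S001C51 of CAM 260 and 8.47 and 17.3 CPM in S001C37 of CN 113721, the libraries named above.

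Nearness did not always go with the same states. Csa04g024300.1 and Csa04g024370.1, 7 gene models apart on chromosome 4 and named after their values were seen, were opposite in 9 accessions and equal in 30. In all, 5 of the 47 had another of the 47 within 20 gene models with at most 1 accession opposite. Within that distance, 12 had a gene model outside the set that was counted as sharing the pattern (11 gene models). Not every neighbour with at most 1 accession opposite was counted. Left out were Csa13g001020.1 (4 equal and 0 opposite with Csa13g001000.1) and Csa07g013470.1 (8 equal and 1 opposite with Csa07g013660.1). Some of the 11 were mostly between, as was Csa05g002960.1, between in 37 accessions and equal to Csa05g002760.1 in 7. These neighbours were named after their values were seen. Among the 11, Csa07g062410.1, named after its values were seen, next to Csa07g062400.1 was equal in 39 accessions and opposite in 0, with 9 accessions off in both. Of the pairs on the same chromosome, 4 of 59 had at most 1 accession opposite, and of the pairs on different chromosomes 1 of 1022, which was Csa14g037750.1 with Csa18g039960.1 (39 equal, 1 opposite).

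The late accessions had no part in the choice, and the same gene models were on or off in them. Of 188 combinations, 128 were on (68.1%), 50 were off (26.6%) and 10 were between (5.32%). The number on was 37 in CN 113662, 28 in CN 113692, 32 in CN 113691 and 31 in CN 113660. There were 24 gene models on in all 4 late accessions and 4 off in all 4. Another 16 were on in at least 1 and off in at least 1, which is 39.02% of the 41 that were on in a late accession, against 1.04% of the 29088 gene models on in a late accession.

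Several of these differences were large. Csa07g049730.1 was at 290, 0, 115 and 56.1 CPM in CN 113662, CN 113692, CN 113691 and CN 113660, against 0 to 426 CPM in the early accessions (median 0.118). Csa20g079410.1 was at 93.7, 69.8, 69.0 and 0.0665 CPM in the same late accessions in that order, against 0 to 190 CPM in the early accessions (median 67.2). Each was high in 3 late accessions and near 0 in the remaining accession, which was CN 113692 for the first and CN 113660 for the second. Csa14g051580.1 was at 20.8, 0, 24.1 and 21.5 CPM, again without a read in CN 113692, where 3 counts would be 0.604 CPM. By contrast Csa14g037750.1 was on in all 4, at 187, 562, 294 and 214 CPM. Each late accession held the state that was the rarer one in the early accessions in 4, 9, 11 and 9 gene models, in the order given. Libraries in both states occurred in 11 late combinations, 6 of them in CN 113662, whose 3 libraries were each nearer to an early library than to each other.

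Whether the 47 gene models differed between late and early accessions was tested across all gene models with edgeR's quasi-likelihood test. None of the 47, all of which passed the filter, had an adjusted p below 0.05, against 14.3% of the 52305 gene models tested (6.01% higher and 8.27% lower in late accessions). The rule required at least 3 early accessions in each state, which widens the spread of a member among them. A low number of members passing was thus in part fixed by the choice, here and in the tests of FT and prefix below. It does not show that the 47 differ less than other gene models. At an unadjusted p below 0.05 in edgeR there were 4 of the 47, against 15277 of all 52305 gene models. The 4 were Csa02g007640.1, Csa02g030890.1, Csa07g008350.1 and Csa10g032120.1, named after their values were seen. DESeq2 called 2 of the 47, both lower in late accessions, against 3207 higher and 4234 lower of all 58327 gene models. The median log2 fold change, late over early, was 0.16 over the 47 and -0.02 over all gene models tested. Every late library was of the series Cs. When the early accessions were also restricted to that series, none of the 45 members tested passed, against 1632 higher and 1725 lower of 47745 gene models.

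The calls of DESeq2 were Csa10g032120.1 and Csa10g007250.1, neither of which was on in a late accession. Csa10g032120.1 had 0.218, 0.201, 0.147 and 0.200 CPM in CN 113662, CN 113692, CN 113691 and CN 113660, against 0 to 39.9 CPM in early accessions (median 0.331), 13 of which were on. Its late values lay inside the early range, below the early median. Its log2 fold change was -4.94 ± 2.31 (SE) with an adjusted p of 0.142 in edgeR and -4.99 ± 1.41 with an adjusted p of 0.00767 in DESeq2. Csa10g007250.1 had no read in any late accession, where 3 counts would be 0.200 to 0.604 CPM, and was on in 4 of the 44 early accessions. Its adjusted p was 0.274 in edgeR and 0.000243 in DESeq2. Without CN 113662, edgeR called 3 other members lower in the late accessions, against 3887 lower of all 52813 gene models tested. The 3 members were Csa02g007640.1, Csa15g027580.1 and Csa19g007230.1. Each was on in CN 113662, at 16.04, 23.3 and 25.3 CPM, and not in the other late accessions.

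Within the early accessions, none of the 43 members tested had a slope on FT with an adjusted p below 0.05 in edgeR, against 0.0216% of the 50816 gene models tested. The other 4, each on in only 3 or 4 accessions, did not pass the filter. Unadjusted p-values in edgeR were below 0.05 for 3 members, against 6444 of all 50816 gene models. The 3 members were Csa08g047020.1, Csa10g032120.1 and Csa14g049690.1, named after their values were seen. DESeq2 called 0 of 47, against 153 higher and 26 lower of all 50716 gene models. Early FT spanned 43 to 47.9 days only.

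Between the prefixes, none of the 41 members tested differed in edgeR (CAM against CN, 8 and 36 accessions), against 0.0435% of the 50523 gene models tested (0.0396% higher and 0.00396% lower in CAM). An unadjusted p below 0.05 was found for 1 member, against 7144 of the 50523. DESeq2 called 2 of 47, Csa10g007250.1 and Csa14g049690.1, against 153 higher and 197 lower of all 58049 gene models. Csa10g007250.1 on chromosome 10 was on in CAM 219, CAM 223, CAM 224 and CAM 260, at 15.9, 6.45, 25.4 and 18.5 CPM, and was at 0 to 0.0332 CPM in the other 4 CAM accessions and at 0 to 0.136 CPM in the 36 CN accessions. It was thus on in CAM accessions alone among the early ones, but in only 4 of 8 of them. Its own libraries were on in all 3 of CAM 224, while in CAM 223 Cs120 was on (15.5 CPM) with Cs132 at 5.09 CPM and S001C53 at 0, in CAM 219 only Cs082 was on (45.2 CPM, against 0 and 0) and in CAM 260 only S001C51 (24.98 CPM, against 0 and 0). Csa10g007250.1 did not pass the filter. Its adjusted p was 0.000832 in DESeq2 and 3.76e-13 in edgeR without the filter. Both rest on 4 of 8 CAM accessions, in CAM 219 and CAM 260 through 1 library each. Cs082, S001C51 and Cs124 of CAM 224 are among the 28 libraries nearer to another accession and Cs120 is not, and whether the call of Csa10g007250.1 depends on them was not tested.

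Csa14g049690.1 on chromosome 14 was the opposite case. It had no read in any of the 8 CAM accessions and 0 to 28.6 CPM in the 36 CN accessions (median 0), 8 of which were on. Its log2 fold change, CAM over CN, was -8.96 with an adjusted p of 0.188 in edgeR, and the adjusted p in DESeq2 was 1.55e-27. The fitted size of the change depends on the handling of the zeros and is no bound.

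The series of the library code was tested within the 30 early accessions that had libraries of both Cs and S001C, with the accession as a block. Of the 47 members, 1 was higher and 2 were lower in Cs, against 16.1% of 51010 gene models called in edgeR (8.13% higher and 7.98% lower in Cs). Csa20g079410.1 was at 0 to 183 CPM in Cs (median 52.8) and 0 to 197 CPM in S001C (median 103), and was lower in Cs in 26 of 30 accessions (log2 fold change -0.90 ± 0.27 SE, adjusted p = 0.0194). Csa05g044580.1 was at 0 to 38.9 CPM in Cs (median 20.01) and 0 to 93.0 CPM in S001C (median 29.2), lower in Cs in 21 of 30 (-0.65 ± 0.23 SE, adjusted p = 0.0457). Csa13g001000.1 was at 0 to 31.2 CPM in Cs (median 19.7) and 0 to 33.8 CPM in S001C (median 17.03), higher in Cs in 20 of 30 (0.34 ± 0.11 SE, adjusted p = 0.0230). The ranges of the series overlapped from 0 upward in all 3 gene models. Their changes were far below the contrast between on and off. DESeq2 called Csa13g001000.1 only, against 4436 higher and 4166 lower of all 52752 gene models.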

How the data were processed

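RNA-seq counts of 159 leaf libraries were used. Per the study's methods, the authors trimmed reads (Trimmomatic 0.32), aligned them (STAR 2.7.10a) and deposited whole-number counts per gene model (featureCounts 2.0.1), not normalized, and the strand setting is not given in the sources used here. Libraries under 200000 counts were left out and the others summed per accession. CPM were computed from the accession's total. The members and lists were chosen with earlier results of these data known. Tests used edgeR 4.0.16 in R 4.3.3 (quasi-likelihood, TMM, filterByExpr, Benjamini-Hochberg over all gene models tested, threshold 0.05), with DESeq2 1.42.0 as an alternative. The edgeR tests, but not those of DESeq2, were tried on simulated data, in which no gene model was set on or off. The flowering class is late at 52 days or more and early under 48 days.

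Gene models named are the 8 most even splits, the 8 with the highest median in on accessions, neighbours with the same states, those past a test, those closest to the limit of 90%, and 3 examples of a smaller state in 3 accessions. Csa07g014690.1, Csa10g007250.1, Csa14g049690.1, Csa15g027580.1, Csa18g039960.1 and Csa19g007230.1 were named after their values were seen. The table of gene names matched 0 identifiers, so lists by function could not be applied, and 0 of the 47 were on the study's lists of 164 and 30 gene models. By their share of all 94495 gene models, lists of this length would hold few or none of 47, so this 0 carries no result. All libraries, a stricter and looser threshold, TMM sizes, left-out accessions, Cs libraries alone, covariates and no filter were tried.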

Additional observations from a re-analysis of the deposited data

Results flagged for a closer look

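Among the 4 late accessions, Csa05g017670.1 was at 1.53 CPM in CN 113660 and at 0, 0 and 0.0733 CPM in the others, and Csa14g051580.1 was at 0 CPM in CN 113692 and at 20.8, 24.1 and 21.5 CPM in the others. Each lay farther from the rest than Dixon's 95% limit. The test was made on 22 named gene models. Its rate of about 1 in 20 is for values of 1 spread and not for gene models chosen as on or off. The number passing is therefore not set against that rate.

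Libraries left out for low counts held reads at gene models that were off in every library used of their accession. This includes CN 113723 and CN 113717, which had no split among the libraries used. Library S001C2F of CN 113723 (123028 counts) had 29 reads at 10 of 23 such gene models, where 0.225 would correspond to the level of the other libraries. Library S001C62 of CN 113717 (26147 counts) had 12 reads at 7 of 24, against 0.0447. With all libraries summed, 47 gene models again met the rule.

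Licalla, which took no part in the choice, had 29 of the 47 on, 10 off and 8 between, with 8286624 counts.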

How the results depend on the processing

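The number of gene models meeting the rule moved from 47 to 25 with thresholds of 0.5 and 8 CPM, 85 with 1 and 5 CPM, 106 when 80% of accessions had to be on or off, 7 when all had to be, 71 with at least 2 accessions in each state, 23 with at least 5, 84 with Cs libraries only (34 accessions, 37 shared) and 90 without the 28 libraries nearer to another accession (44 shared). Leaving out each accession gave 44 to 54. The 248 combinations with libraries in both states in 44 accessions became 97 in 41 without the 28 libraries, which were picked on these states. Between late and early accessions, 0 members passed in edgeR, 2 in DESeq2 and 2 when the Cs share of an accession's libraries was a covariate, and leaving out each late accession gave 0 to 3, the 3 being without CN 113662. With the Cs share as a covariate, 5054 higher and 5472 lower of all 52305 gene models passed. Between CAM and CN, 0 became 2 in DESeq2 and 1 without the filter, where 211 higher and 20 lower of all 75649 gene models passed. Between library series, 3 became 1 in DESeq2. The cause of these changes was not tested. The slope on FT gave 0 members in all 9 alternatives. Over all gene models, 1901 higher and 843 lower of 51556 passed for FT with the prefix as a covariate. Without the filter, 402 higher and 285 lower of 75649 passed. Without the 2 accessions farthest from the median FT, 0 higher and 0 lower of 50043 did. The shares on and off in late accessions stayed within 64.5% to 70.9% and 24.1% to 30.5%. No paired analysis was possible because the labels give no replicate numbers to pair accessions between groups, and only the library series were compared within accessions. CN 113692, with 2 libraries, has the least depth of the late accessions, and 3 counts there are 0.604 CPM. Alternatives with the 28 libraries or S001C5C left out were chosen after seeing the data.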

Other observations

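Csa13g001000.1 and Csa00669s030.1, the latter on an unplaced scaffold and named after its values were seen, had 39 early accessions equal and 0 opposite.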
